A study of Mus musculus with 15 samples.

Results

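The genes described here are the molecular chaperones and the genes of the unfolded protein response (UPR) in mouse cumulus cells, the follicle cells that enclose the oocyte. They were chosen by gene symbol from the authors' deposited table of probes present in at least 1 stage. The families taken were the heat shock proteins (Hspa, Hspb, Hspd, Hspe, Hsph and Hsp90), the J proteins (Dnaja, Dnajb and Dnajc), the protein disulfide isomerases (Pdia) and the CCT chaperonin, together with Calr, Canx, Xbp1, Atf4, Atf6, Ddit3, Ern1, Eif2ak3, Herpud1, Hyou1, Hsf1, Hsf2 and Sel1l. This gave 113 probes for 85 genes, among 15059 genes with a symbol in that table. Each gene was read from its probe with the highest mean over the 15 arrays, and 79 of the 85 genes were well above background in at least 4 of 5 arrays of every stage. The symbol search itself used no expression value, but the members and the lists of further genes were chosen with earlier results of these data known.

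A total of 15 arrays covered 3 stages of B6CBAF1/J mice, with 5 arrays each, and each array was hybridized with cells pooled from groups of mice. NC1 cells surrounded prophase I oocytes of 3-week-old juveniles in unexpanded complexes, and these oocytes had no or poor developmental competence. C1 cells surrounded competent prophase I oocytes in unexpanded complexes of 8-week-old adults. C2 cells came from expanded complexes that were collected from the oviducts of superovulated 8-week-old adults and dispersed in 300 µg/ml hyaluronidase, and their oocytes had reached metaphase II. Stage therefore goes with age from NC1 to C1, and with hormone treatment, collection site and enzyme from C1 to C2, and these cannot be told apart here. In such bulk samples, fewer cells of a type and less RNA per cell cannot be told apart either.

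Proteins that enter the secretory pathway fold in the endoplasmic reticulum (ER), where the Hsp70 protein BiP (Hspa5), the Hsp90 protein GRP94 (Hsp90b1), the lectins calreticulin and calnexin and the disulfide isomerases assist them. When unfolded proteins accumulate there, the sensors IRE1 (Ern1), PERK (Eif2ak3) and ATF6 start the UPR, in which XBP1, ATF4 and ATF6 raise transcription of ER chaperones and of degradation genes, and CHOP (Ddit3) follows prolonged stress. The cytosol has its own Hsp70, Hsp90 and CCT machines, whose induction by heat or misfolded protein runs through heat shock factors. Cumulus cells secrete a large hyaluronan-rich matrix when the complex expands at ovulation.

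Levels below are log2 intensities relative to the array's median over the valid probes, that is, over the 17323 probes well above background in every stage. They compare stages for 1 probe and not 1 gene with another. A gene was called different when the Benjamini-Hochberg adjusted p of limma, taken over all 17323 probes, was below 0.01. Each array gave between 18366 (C2 replicate 3) and 24493 (C1 replicate 4) gene probes well above background. The 15 arrays lay on 4 slides, each of which held all 3 stages. Changes depend on how arrays are scaled: the median change of all valid probes from C1 to C2 was 0.02 here, 0.33 when the median over all gene probes was used for scaling or when the deposited table was used, and -0.13 with spike-in scaling.

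From NC1 to C1, 1 of 79 members rose and 1 fell, whereas 1.75% of all valid probes rose and 0.768% fell. The values of NC1 and C1 did not overlap for 4 members, against 5.98% of all probes. The member that rose was Dnaja4, a J protein of the cytosol that drives the ATP cycle of Hsp70. Dnaja4 stood at 0.12, -0.04, -0.09, -0.04 and -0.44 at NC1, at 1.64, 0.95, 0.53, 1.33 and 1.09 at C1 and at 1.61, 1.62, 1.58, 1.22 and 1.55 at C2. All C1 arrays lay above all NC1 arrays, and the C2 arrays lay in the upper part of the C1 range. Dnaja4 rose by 1.21 ± 0.17 (SE) from NC1 to C1, or 2.31-fold (limma adjusted p = 0.000306), while its change from C1 to C2 was 0.41 ± 0.17 (SE, adjusted p = 0.0491). With the deposited table the first change was not called (adjusted p = 0.0183).

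The member that fell was Dnajb13, a J protein known from the radial spokes of cilia and sperm flagella. Dnajb13 stood at -0.58, -0.32, -0.74, -0.72 and -0.49 at NC1, at -1.33, -0.89, -1.43, -1.51 and -1.17 at C1 and at -3.93, -3.79, -4.06, -3.38 and -3.50 at C2. The 3 stages did not overlap, with NC1 highest and C2 lowest. Dnajb13 fell by 0.70 ± 0.15 (SE) from NC1 to C1 (adjusted p = 0.00963) and fell by 2.46 ± 0.15 (SE) from C1 to C2 (adjusted p = 8.27e-10), the latter a 5.51-fold drop. The first of these calls was lost under 21 of 30 alternative settings, the second under none. A further gene, Hspa2, an Hsp70 protein best known from male germ cells, had a change of 0.71 ± 0.18 (SE, adjusted p = 0.0236) from NC1 to C1. Red blood cell markers moved at the same step, as 4 of 5 fell, and their summed log2 level was 6.20 to 8.78 at NC1 and 3.39 to 5.44 at C1. Their part in these results was not tested.

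From C1 to C2, 14 of 79 members rose (17.7%) and 30 fell (38.0%), whereas 25.4% of all valid probes rose and 22.2% fell. The groups did not overlap for 40 members, against 43.9% of all probes. The counts moved with the scaling, for members as for all probes: 19 members rose and 15 fell when the median over all gene probes was used, while 30.6% of all valid probes rose and 10.4% fell, and the deposited table gave the same 19 and 15. From NC1 to C2, 15 members rose and 30 fell, against 26.5% and 24.9% of all probes, and these comparisons share arrays with the others. The moderated F-test across the 3 stages called 44 members, against 51.6% of all probes. Of the 79 members, 25 were lower at C2 than at both other stages and 12 were higher than at both, with no call between NC1 and C1. A total of 28 members had no call in any comparison. The same joint patterns are not given here over all valid probes, so these counts have no background beside them.

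**Figure D1:**
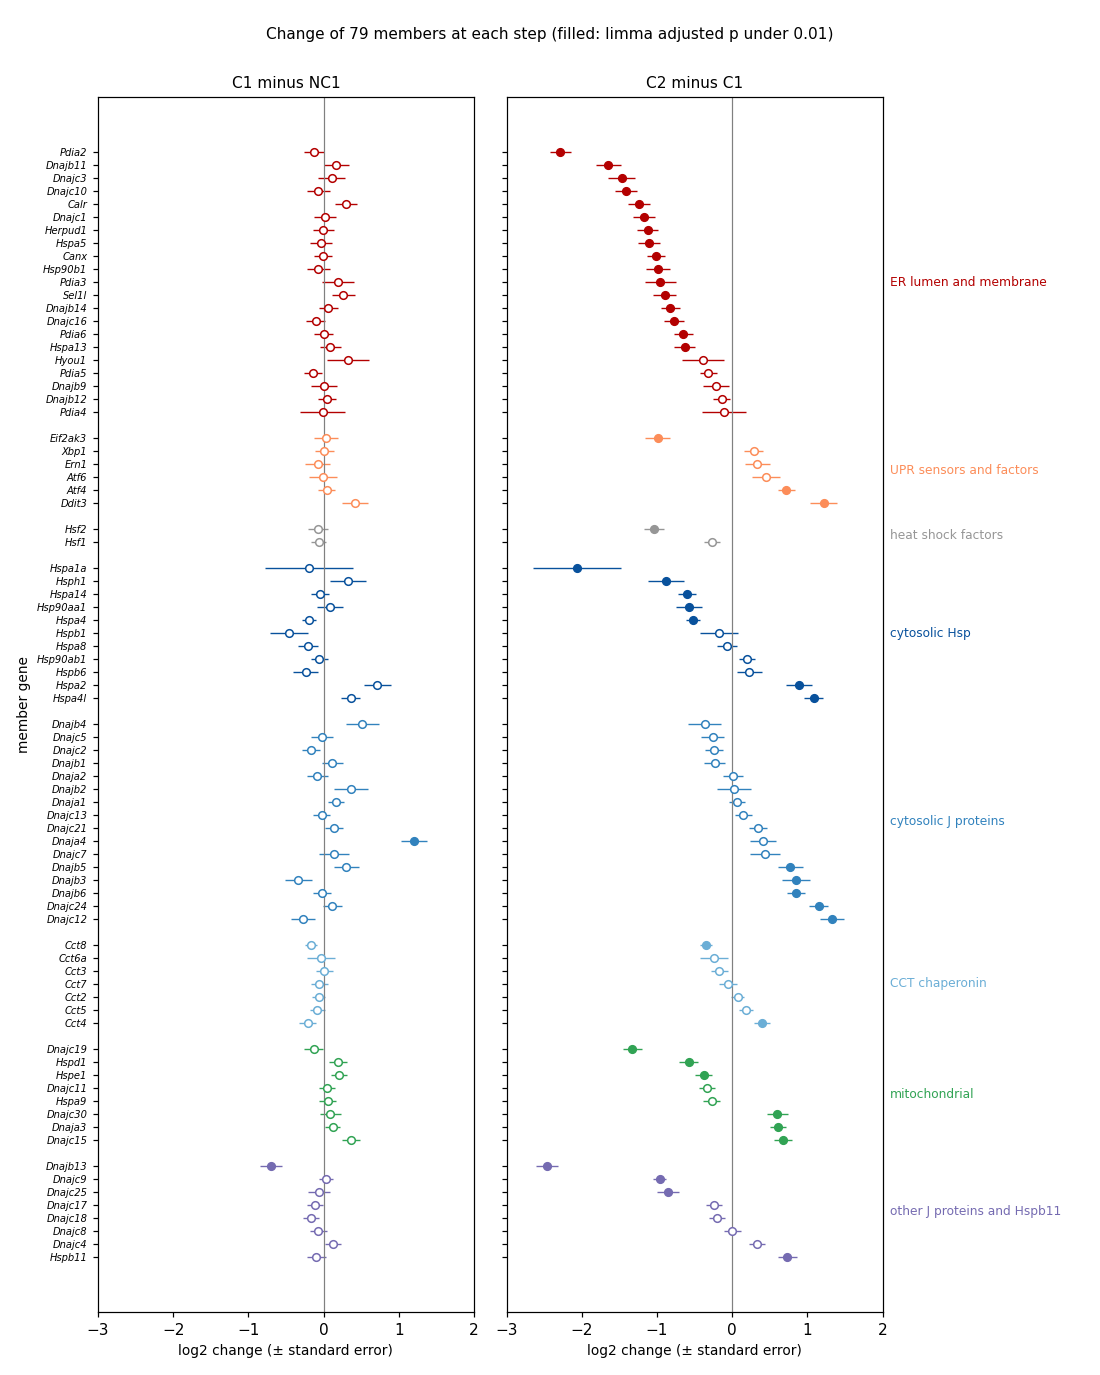
Log2 change of the 79 members from NC1 to C1 (left) and from C1 to C2 (right), grouped by compartment. Points are changes with their standard error, filled where the limma adjusted p was below 0.01. In the right panel all 21 valid ER members lie below 0 and 16 of them are filled, whereas the cytosolic sets lie on both sides.

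The members were not spread evenly over compartments. All 21 valid genes of the ER set had a negative change from C1 to C2, and 16 of them fell (76.2%), with a median change of -0.95 (range -2.29 to -0.11) beside a median of 0.02 over all valid probes. None of the 21 was called from NC1 to C1, where their median change was 0.01. In the pooled cytosolic set of 34 valid genes, 8 rose (23.5%) and 6 fell (17.6%), against 25.4% and 22.2% of all valid probes. The median change of this set from C1 to C2 was 0.04, which was negative under 4 of 30 alternative settings. The ER median minus the cytosolic median was -0.999 on the log2 scale, a description with no test. This difference ranged from -1.09 to -0.81 over all settings tried. Scaling by another constant per array cannot change it. Settings that alter only the calls or the estimated spread cannot either, so only the remaining settings bear on it. With the authors' deposited values, 18 of the 21 ER changes were negative, 11 genes fell and none rose, and the ER median was -0.65.

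**Figure D2:**
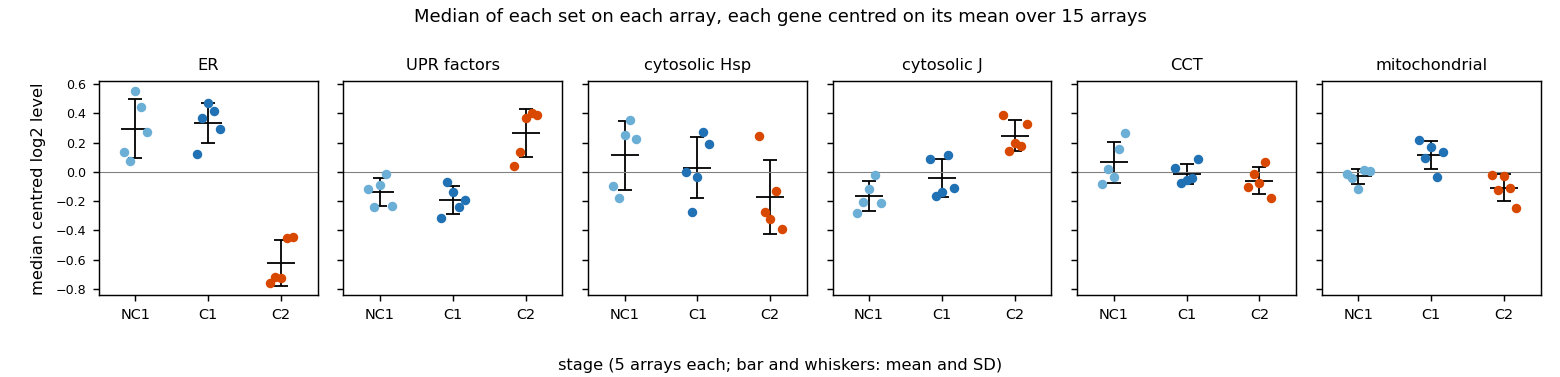
Median of each set on each of the 15 arrays, after each gene was centred on its mean over the arrays (log2 scale). Points are arrays, with the mean and SD of 5 arrays per stage. The ER medians lie between -0.76 and -0.45 at C2 and between 0.07 and 0.55 at both prophase I stages.

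The ER set included the general chaperones of the lumen. Hspa5 encodes BiP, the ER Hsp70 that holds unfolded chains and also restrains the UPR sensors. Hspa5 stood at 6.87, 6.67, 7.18, 7.16 and 6.81 at NC1, at 6.68, 6.98, 7.13, 6.97 and 6.73 at C1 and at 5.66, 5.54, 5.58, 6.09 and 6.10 at C2. The highest C2 array lay below the lowest array of both prophase I stages. Hspa5 fell by 1.11 ± 0.15 (SE) from C1 to C2, a 2.15-fold drop (limma adjusted p = 6.02e-06). GRP94 (Hsp90b1), the ER Hsp90, takes clients after BiP. Hsp90b1 stood at 6.69, 6.54, 7.18, 6.98 and 6.82 at NC1, at 6.43, 6.90, 7.14, 6.73 and 6.65 at C1 and at 5.73, 5.56, 5.55, 6.004 and 6.07 at C2. It fell by 0.99 ± 0.16 (SE) from C1 to C2 (adjusted p = 3.98e-05), with no overlap between C2 and the earlier stages. Hyou1, an ER Hsp110 that exchanges the nucleotide of BiP, stood at -2.03, -2.31, -2.63, -1.76 and -1.86 at NC1, at -2.31, -1.78, -1.65, -1.61 and -1.59 at C1 and at -2.42, -1.16, -3.18, -2.17 and -1.96 at C2. Its C2 arrays spanned the range of the other stages, and its change was -0.39 ± 0.28 (SE, adjusted p = 0.25). Hspa13, a further Hsp70-like protein of microsomes, fell by 0.63 ± 0.14 (SE) (adjusted p = 0.000741).

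The lectin chaperones calreticulin and calnexin bind the glucose-trimmed sugars of new glycoproteins. Calr stood at 4.11, 4.03, 3.69, 4.13 and 3.95 at NC1, at 4.29, 4.51, 4.35, 4.04 and 4.22 at C1 and at 2.73, 2.88, 2.84, 3.48 and 3.29 at C2. Its lowest C1 array lay above its highest C2 array, and it fell by 1.24 ± 0.15 (SE) from C1 to C2, a 2.36-fold drop (adjusted p = 1.95e-06). Canx stood at 5.17, 4.998, 5.44, 5.46 and 5.38 at NC1, at 5.08, 5.30, 5.31, 5.39 and 5.34 at C1 and at 4.48, 4.07, 4.01, 4.37 and 4.45 at C2. It fell by 1.01 ± 0.12 (SE) from C1 to C2 (adjusted p = 2.65e-06), and its C2 arrays did not overlap the other stages. Both drops were called under all 30 alternative settings.

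The disulfide isomerases form and reshuffle the disulfide bonds of secreted proteins, and they did not move as 1 block. Pdia2, an isomerase known mainly from the pancreas, stood at 0.10, -0.05, 0.01, -0.19 and -0.01 at NC1, at -0.47, 0.15, 0.24, -0.41 and -0.28 at C1 and at -2.59, -2.49, -2.32, -2.30 and -2.49 at C2. It fell by 2.29 ± 0.14 (SE) from C1 to C2, a 4.87-fold drop and the lowest change in the ER set (adjusted p = 7.01e-10). The other valid Pdia2 probe had a change of -2.43 and was called too. Pdia3 (ERp57), the partner of calreticulin and calnexin, stood at 3.32, 3.81, 3.58, 3.41 and 3.71 at NC1, at 3.64, 4.14, 4.16, 3.50 and 3.34 at C1 and at 2.47, 2.18, 2.94, 3.20 and 3.23 at C2. It fell by 0.95 ± 0.21 (SE) (adjusted p = 0.000906), its highest C2 array lay just below its lowest C1 array, and the call was lost under 3 of 30 alternatives. Pdia6 stood at 6.96, 6.78, 7.28, 7.13 and 6.997 at NC1, at 6.78, 7.06, 7.31, 7.07 and 6.93 at C1 and at 6.40, 6.31, 6.08, 6.49 and 6.63 at C2. This isomerase (P5) fell by 0.65 ± 0.13 (SE) (adjusted p = 0.000359), without overlap. Pdia4 and Pdia5 showed no call from C1 to C2. Pdia4, with several thioredoxin-like domains, stood at 2.73, 2.28, 3.50, 3.85 and 3.37 at NC1, at 2.80, 2.80, 3.33, 3.54 and 3.18 at C1 and at 3.89, 3.04, 2.69, 2.41 and 3.09 at C2. Its stages overlapped fully and its change was -0.11 ± 0.29 (SE, adjusted p = 0.773). Pdia5 stood at 2.03, 1.82, 1.97, 2.07 and 2.22 at NC1, at 1.53, 2.02, 1.79, 1.93 and 2.12 at C1 and at 1.58, 1.70, 1.38, 1.51 and 1.65 at C2. Its change from C1 to C2 was -0.31 ± 0.12 (SE, adjusted p = 0.0299), and against NC1 it fell by 0.46 ± 0.12 (SE) (adjusted p = 0.00283).

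**Figure D3:**
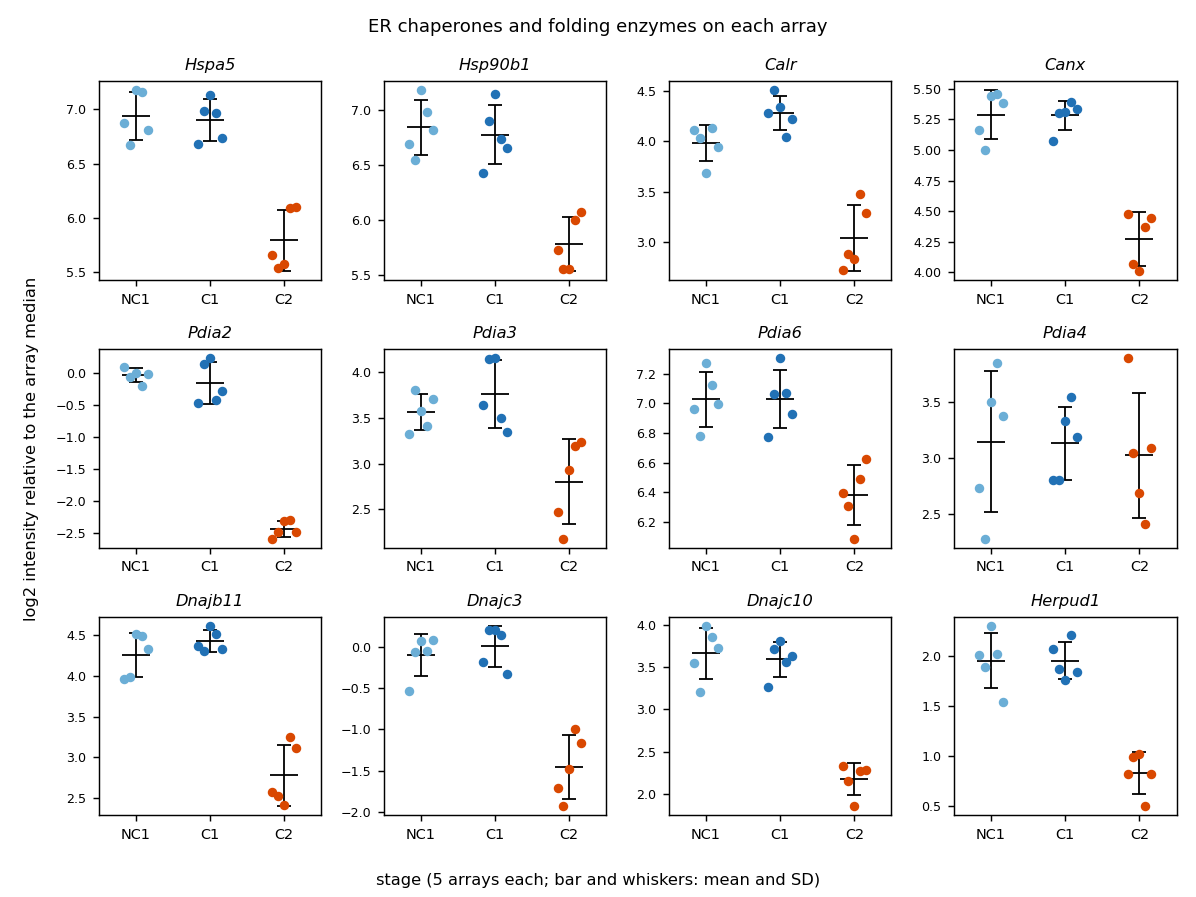
Log2 intensity relative to the array median of 12 ER members on each array, by stage. Points are arrays, with the mean and SD of 5 arrays. For 11 genes the 5 C2 arrays lie below all C1 arrays, whereas Pdia4 overlaps between stages.

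J proteins of the ER bring clients to BiP and start its ATP cycle. Dnajb11 (ERdj3) stood at 3.96, 3.99, 4.52, 4.49 and 4.32 at NC1, at 4.37, 4.30, 4.62, 4.51 and 4.33 at C1 and at 2.57, 2.53, 2.42, 3.25 and 3.12 at C2. It fell by 1.65 ± 0.17 (SE) from C1 to C2, a 3.13-fold drop (adjusted p = 3.47e-07), with more than 1 log2 unit between the lowest C1 and the highest C2 array. Dnajc3 (p58IPK), which also inhibits kinases of eIF2α, stood at -0.53, -0.05, 0.08, -0.05 and 0.09 at NC1, at -0.18, 0.21, 0.21, 0.15 and -0.32 at C1 and at -1.71, -1.94, -1.48, -0.99 and -1.16 at C2. It fell by 1.47 ± 0.18 (SE) (adjusted p = 2.69e-06) and C2 did not overlap the other stages. Dnajc10 (ERdj5), a J protein with reductase activity that aids degradation, stood at 3.54, 3.21, 3.99, 3.85 and 3.72 at NC1, at 3.26, 3.71, 3.81, 3.56 and 3.63 at C1 and at 2.33, 2.16, 1.85, 2.27 and 2.28 at C2. It fell by 1.42 ± 0.15 (SE) (adjusted p = 4.74e-07), again without overlap. Dnajc1, a membrane J protein, fell by 1.17 ± 0.15 (SE), Dnajb14 fell by 0.82 ± 0.13 (SE) and Dnajc16 fell by 0.77 ± 0.13 (SE), each with an adjusted p between 3.04e-06 and 7.56e-05. Dnajb9 (ERdj4) and Dnajb12 had changes of -0.22 ± 0.17 (SE, adjusted p = 0.289) and -0.14 ± 0.12 (SE, adjusted p = 0.314).

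Herpud1 and Sel1l, membrane proteins that act in ER-associated degradation, in which misfolded proteins leave the ER for the proteasome, both fell. Herpud1 stood at 2.01, 1.89, 2.31, 2.03 and 1.54 at NC1, at 2.07, 1.88, 1.76, 2.22 and 1.84 at C1 and at 0.82, 0.99, 1.02, 0.50 and 0.83 at C2. It fell by 1.12 ± 0.14 (SE) from C1 to C2 (adjusted p = 3.96e-06). Sel1l, the scaffold of the HRD1 ligase, stood at 0.18, 0.32, 0.24, 0.20 and 0.35 at NC1, at 0.13, 0.90, 0.76, 0.24 and 0.58 at C1 and at -0.66, -0.58, -0.13, -0.13 and -0.38 at C2. It fell by 0.90 ± 0.15 (SE) (adjusted p = 7.14e-05). All C2 arrays of both genes lay below all arrays of the earlier stages.

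The median ER change within the 4 slides ranged from -1.05 to -0.74, all negative. Markers of other cells moved at the same step. The theca and stroma list had 5 valid genes of 7, and all 5 fell. Its summed log2 level was 3.48 to 5.73 at NC1, 3.31 to 4.04 at C1 and -1.02 to -0.46 at C2, and Col1a1 and Col1a2 were among the genes that fell. The cumulus and granulosa list fell for 9 of 10 valid genes, with a sum of 8.41 to 8.78 at C1 and 6.33 to 6.91 at C2, and Foxl2 was the gene not called. The oviduct epithelium list had a sum of 2.84 to 3.56 at C1 and 4.64 to 4.92 at C2, with Krt8 and Krt18 higher and Epcam and Tppp3 lower, and 1 of its 8 genes was never above background. The oocyte list had a sum of 3.68 to 5.38 at C1 and -0.48 to 4.18 at C2. No other marker list held a gene that was never above background. The part of these cells in the ER result was not tested.

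Promoter sequences are shown for the ER members because several of them share a regulatory element. It was found in no other member whose promoter could be searched. The ER stress response element (ERSE), bound by ATF6 and XBP1 with NF-Y, was searched on both strands as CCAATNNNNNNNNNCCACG in the RefSeq promoter table of GRCm38.p6, which covers 250 bases before to 50 after each gene start and holds 69 of the 85 members. ERSE was found in 6 of 20 ER members (30%) and in 0 of the 49 other members with a promoter in the table, against 0.137% of 27025 genes and 0.119% of 32851 promoters. Of these 20 ER members, 15 fell from C1 to C2, and ERSE was in 40% of those 15. Most ER members that fell thus lacked this exact form in the window searched. Inexact copies and other spacings were not searched. The 6 genes with ERSE were Calr, Canx, Dnajc3, Hspa5, Hsp90b1 and Pdia6, and all of them fell from C1 to C2. Whether ERSE goes with the fall was not tested. A match is a description of letters, not evidence of binding. The 250 bases before the start are printed for these genes in the direction of transcription, with the element in capitals: Hspa5 at chr2:34771840-34772089 (plus strand), Hsp90b1 at chr10:86705445-86705694 (minus strand), Calr at chr8:84846932-84847181 (minus strand), Canx at chr11:50325674-50325923 (minus strand), Dnajc3 at chr14:118937682-118937931 (plus strand) and Pdia6 at chr12:17266339-17266588 (plus strand).
Hspa5: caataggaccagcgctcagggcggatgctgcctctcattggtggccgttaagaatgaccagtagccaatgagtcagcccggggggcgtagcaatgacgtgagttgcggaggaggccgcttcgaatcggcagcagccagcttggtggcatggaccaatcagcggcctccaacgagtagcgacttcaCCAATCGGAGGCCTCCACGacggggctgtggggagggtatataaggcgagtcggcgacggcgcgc
Hsp90b1: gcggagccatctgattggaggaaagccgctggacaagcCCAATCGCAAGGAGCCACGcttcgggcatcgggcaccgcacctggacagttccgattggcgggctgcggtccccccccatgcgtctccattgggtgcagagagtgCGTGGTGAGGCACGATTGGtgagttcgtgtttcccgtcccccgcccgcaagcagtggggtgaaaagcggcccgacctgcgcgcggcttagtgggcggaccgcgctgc
Calr: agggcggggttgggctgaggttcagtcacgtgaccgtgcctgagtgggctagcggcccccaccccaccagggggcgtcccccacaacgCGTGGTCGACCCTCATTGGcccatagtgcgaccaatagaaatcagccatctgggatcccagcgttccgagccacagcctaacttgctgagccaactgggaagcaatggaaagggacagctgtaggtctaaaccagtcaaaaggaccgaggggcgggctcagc
Canx: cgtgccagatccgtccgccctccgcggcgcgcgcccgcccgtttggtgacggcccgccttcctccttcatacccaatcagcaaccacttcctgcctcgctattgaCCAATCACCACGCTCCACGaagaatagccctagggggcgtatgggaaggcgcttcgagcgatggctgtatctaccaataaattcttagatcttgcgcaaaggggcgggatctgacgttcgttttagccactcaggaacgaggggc
Dnajc3: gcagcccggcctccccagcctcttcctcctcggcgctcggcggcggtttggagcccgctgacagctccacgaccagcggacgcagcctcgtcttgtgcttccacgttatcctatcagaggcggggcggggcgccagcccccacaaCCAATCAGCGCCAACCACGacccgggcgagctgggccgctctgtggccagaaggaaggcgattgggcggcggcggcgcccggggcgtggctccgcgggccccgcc
Pdia6: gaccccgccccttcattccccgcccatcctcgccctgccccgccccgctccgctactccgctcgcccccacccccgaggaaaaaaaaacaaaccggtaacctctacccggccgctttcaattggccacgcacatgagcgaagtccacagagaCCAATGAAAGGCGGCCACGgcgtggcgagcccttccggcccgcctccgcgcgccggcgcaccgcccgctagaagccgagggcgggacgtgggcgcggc

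The element began 65 bases before the start in Hspa5, 98 in Pdia6, 105 in Dnajc3, 145 in Canx and 162 in Calr, where it lay on the opposite strand. Hsp90b1 held 2 copies, the first at 212 bases before the start and the other nearer to it on the opposite strand. The short part CCACG, which every ERSE contains, was in 85% of ER members, 60% of cytosolic members and 35.5% of all genes in the table. The core of the UPR element, TGACGTG, was in 1 of 20 ER members and 2.22% of all genes. The amino acid response motif TGATGNAA, bound by ATF4 and CHOP, was in 2 of 69 members (Herpud1 and Hspa14) and 4.51% of all genes.

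The sensors and transcription factors of the UPR changed in both directions. Of 6 genes, 2 rose (33.3%), 1 fell (16.7%) and 3 had no call from C1 to C2. Over all valid probes 25.4% rose and 22.2% fell. The median change of the 6 genes was 0.39, above 0 under every setting tried. Eif2ak3 encodes PERK, the kinase that phosphorylates eIF2α. Eif2ak3 stood at 1.36, 1.06, 1.96, 1.62 and 1.44 at NC1, at 1.04, 1.53, 1.61, 1.78 and 1.64 at C1 and at 0.49, 0.45, 0.36, 0.50 and 0.85 at C2. It fell by 0.99 ± 0.17 (SE) from C1 to C2 (adjusted p = 7.57e-05), and its highest C2 array lay below its lowest C1 array. Ern1, the sensor IRE1 that splices Xbp1 mRNA, stood at -1.80, -1.96, -1.56, -1.53 and -1.63 at NC1, at -2.08, -2.01, -1.93, -1.03 and -1.80 at C1 and at -1.53, -1.49, -1.54, -1.21 and -1.40 at C2. These stages overlapped and the change from C1 to C2 was 0.34 ± 0.17 (SE, adjusted p = 0.0966). Atf6, the sensor that becomes a transcription factor after cleavage, stood at -0.87, -1.23, -1.27, -1.34 and -1.09 at NC1, at -1.40, -0.70, -1.20, -1.31 and -1.25 at C1 and at -1.30, -1.01, -0.68, -0.26 and -0.38 at C2. The C2 arrays spread from the C1 range upward, and the change was 0.45 ± 0.19 (SE, adjusted p = 0.0489). Xbp1 stood at 4.34, 4.21, 4.57, 4.36 and 4.01 at NC1, at 4.10, 4.50, 4.56, 4.22 and 4.18 at C1 and at 4.38, 4.52, 4.79, 4.54 and 4.73 at C2. Its change was 0.28 ± 0.13 (SE, adjusted p = 0.0653), with overlap, and whether this probe separates spliced from unspliced Xbp1 mRNA was not examined.

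Atf4 and Ddit3, which act downstream of PERK and of other eIF2α kinases, were higher at C2. Atf4 stood at 5.22, 5.16, 5.004, 5.44 and 4.98 at NC1, at 5.46, 5.13, 5.33, 5.10 and 4.98 at C1 and at 6.002, 5.95, 5.97, 5.81 and 5.87 at C2. All C2 arrays lay above all earlier arrays, and Atf4 rose by 0.72 ± 0.11 (SE) from C1 to C2, or 1.65-fold (adjusted p = 3.78e-05). The other valid Atf4 probe rose by 0.67 as well. The call was lost with spike-in scaling, where the change was 0.57 (adjusted p = 0.11), and with a minimum change of 2-fold. Ddit3 (CHOP) stood at -1.59, -1.60, -2.32, -2.49 and -1.84 at NC1, at -1.62, -1.52, -1.52, -1.83 and -1.28 at C1 and at -0.67, -0.41, -0.23, -0.11 and -0.29 at C2. It rose by 1.21 ± 0.17 (SE) from C1 to C2, or 2.32-fold (adjusted p = 1.56e-05), without overlap and under all 30 alternatives.

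**Figure D4:**
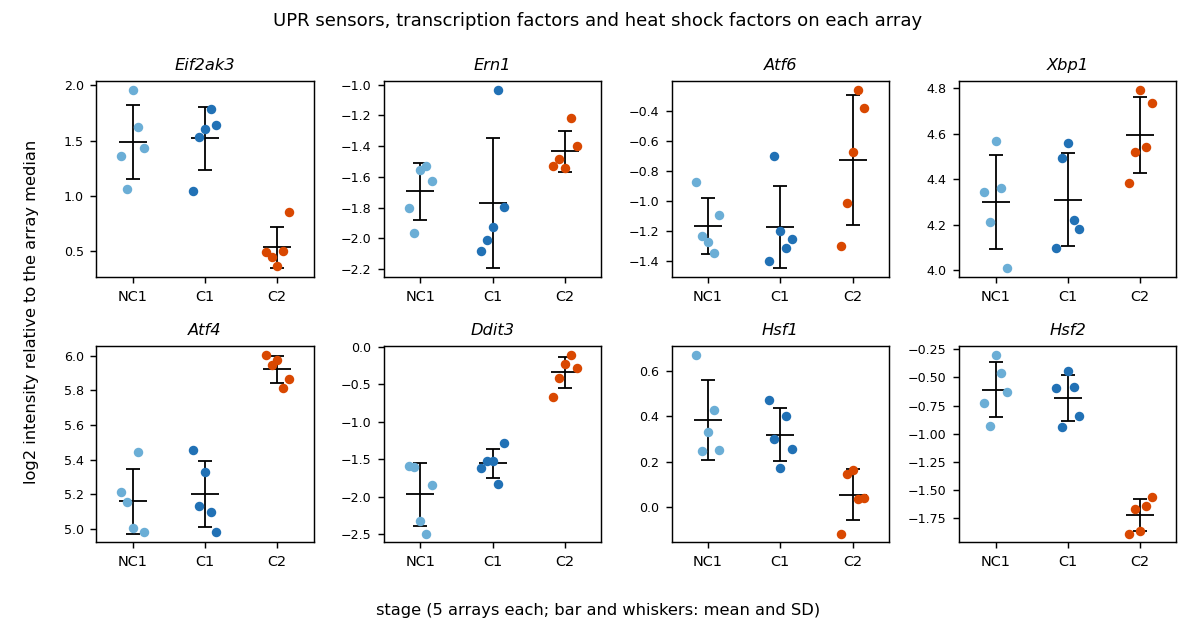
Log2 intensity relative to the array median of the 6 UPR sensors and factors and the 2 heat shock factors on each array, by stage. Points are arrays, with the mean and SD of 5 arrays. Eif2ak3, Hsf2 and, by a small margin, Hsf1 are lowest at C2, Atf4 and Ddit3 are highest there, and Ern1, Atf6 and Xbp1 overlap between C1 and C2.

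Heat shock factors drive the heat-inducible cytosolic chaperones. Hsf1, the main stress-activated factor, stood at 0.67, 0.25, 0.33, 0.43 and 0.25 at NC1, at 0.47, 0.30, 0.17, 0.40 and 0.25 at C1 and at -0.12, 0.15, 0.17, 0.04 and 0.04 at C2. Its change from C1 to C2 was -0.27 ± 0.10 (SE, adjusted p = 0.036), and its C2 arrays lay below all earlier arrays, though only just below the lowest C1 array. From NC1 to C2 the change was -0.33 ± 0.10 (SE, adjusted p = 0.0105), which was called under 10 of 30 alternatives. Hsf2, a factor known from development and gametogenesis, stood at -0.73, -0.93, -0.30, -0.46 and -0.63 at NC1, at -0.60, -0.94, -0.45, -0.59 and -0.84 at C1 and at -1.89, -1.67, -1.86, -1.64 and -1.56 at C2. It fell by 1.04 ± 0.13 (SE) (adjusted p = 3.28e-06), and its C2 arrays lay below all others.

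Cytosolic Hsp70, Hsp90, Hsp110 and small Hsp genes changed in both directions from C1 to C2. Of 11 genes, 5 fell (45.5%) and 2 rose (18.2%), against 22.2% and 25.4% of all valid probes. The median of the 11 genes was -0.17, and it turned positive with the deposited table and with the median over all gene probes. Hspa1a, the classical heat-inducible Hsp70, stood at 0.31, -1.13, 0.17, 1.17 and 1.68 at NC1, at -0.28, -1.39, -0.49, 0.95 and 2.42 at C1 and at -1.29, -2.000, -2.07, -1.85 and -1.90 at C2. Its prophase I arrays spread widely, with an SD of 1.07 at NC1 and 1.48 at C1 against 0.31 at C2, and its lowest C1 array overlapped the C2 range. Hspa1a fell by 2.07 ± 0.59 (SE) (adjusted p = 0.00633), and the call was lost under 9 of 30 alternatives. Without C1 replicate 5 the change was -1.53 (adjusted p = 0.0133), and without C1 replicate 4 it was -1.90 (adjusted p = 0.0158). The near-identical gene Hspa1b could hybridize to the same probe. Hsph1 (Hsp110), an inducible exchange factor of Hsp70, stood at 2.63, 2.58, 2.61, 3.24 and 3.08 at NC1, at 3.57, 2.60, 2.38, 3.87 and 3.37 at C1 and at 2.23, 2.48, 2.43, 2.08 and 2.18 at C2. It fell by 0.88 ± 0.24 (SE) (adjusted p = 0.00489), and its C1 arrays overlapped C2. The highest C1 array was replicate 4 for Hsph1 and replicate 5 for Hspa1a. Both genes were lowest in replicates 2 and 3 of C1 and highest in replicates 4 and 5 of NC1. What these arrays share was not tested.

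The Hsp90 genes of the cytosol differed from each other. Hsp90aa1, the inducible form, stood at 5.02, 5.03, 5.38, 5.50 and 5.36 at NC1, at 5.42, 4.97, 5.41, 5.60 and 5.31 at C1 and at 5.38, 4.57, 4.38, 4.80 and 4.68 at C2. It fell by 0.58 ± 0.17 (SE) (adjusted p = 0.00848), but C2 replicate 1 lay within the C1 range and the call was lost under 17 of 30 alternatives. Hsp90ab1, the constitutive form, stood at 6.81, 6.71, 7.11, 7.10 and 6.95 at NC1, at 6.88, 6.70, 6.84, 7.05 and 6.95 at C1 and at 7.24, 7.18, 6.94, 6.98 and 7.09 at C2. Its change was 0.20 ± 0.11 (SE, adjusted p = 0.118). Hspa8, the constitutive Hsp70 (Hsc70), stood at 6.81, 6.57, 7.10, 7.44 and 6.78 at NC1, at 6.55, 6.81, 6.85, 6.82 and 6.61 at C1 and at 6.74, 6.60, 6.67, 6.68 and 6.61 at C2. Its change was -0.07 ± 0.14 (SE, adjusted p = 0.679), and neither of its other valid probes was called. Hspb1 (Hsp27), a small Hsp that binds actin filaments, stood at 1.71, 1.80, 1.94, 2.35 and 1.77 at NC1, at 1.55, 0.38, 1.54, 1.77 and 2.04 at C1 and at 1.79, 0.89, 1.14, 1.42 and 1.16 at C2. Its change was -0.17 ± 0.25 (SE, adjusted p = 0.579), and C1 replicate 2 was the lowest array.

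The genes that rose in this group were Hspa4l and Hspa2. Hspa4l, an Hsp110 of the Hsp70 exchange factors, stood at -0.65, -0.72, -0.16, -0.32 and -0.60 at NC1, at -0.24, -0.31, -0.24, 0.07 and 0.08 at C1 and at 0.89, 0.86, 0.93, 0.95 and 1.15 at C2. It rose by 1.08 ± 0.12 (SE) from C1 to C2 (adjusted p = 1.27e-06), with no overlap, under all 30 alternatives. Hspa2 rose by 0.89 ± 0.18 (SE) (adjusted p = 0.000376), and within 1 of the 4 slides its change was -0.0053. In the opposite direction, Hspa4, the close relative of Hspa4l, fell by 0.52 ± 0.09 (SE) (adjusted p = 0.000151). Its other valid probes fell by 1.54 and 1.33 (adjusted p = 1.08e-05 and 4e-04), that is, 2.92-fold and 2.52-fold, so the size of the drop depends on the probe. Hspa14, an Hsp70 bound to ribosomes, fell by 0.60 ± 0.12 (SE) (adjusted p = 0.000344). Hspb6 had a change of 0.23 ± 0.17 (SE, adjusted p = 0.265).

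**Figure D5:**
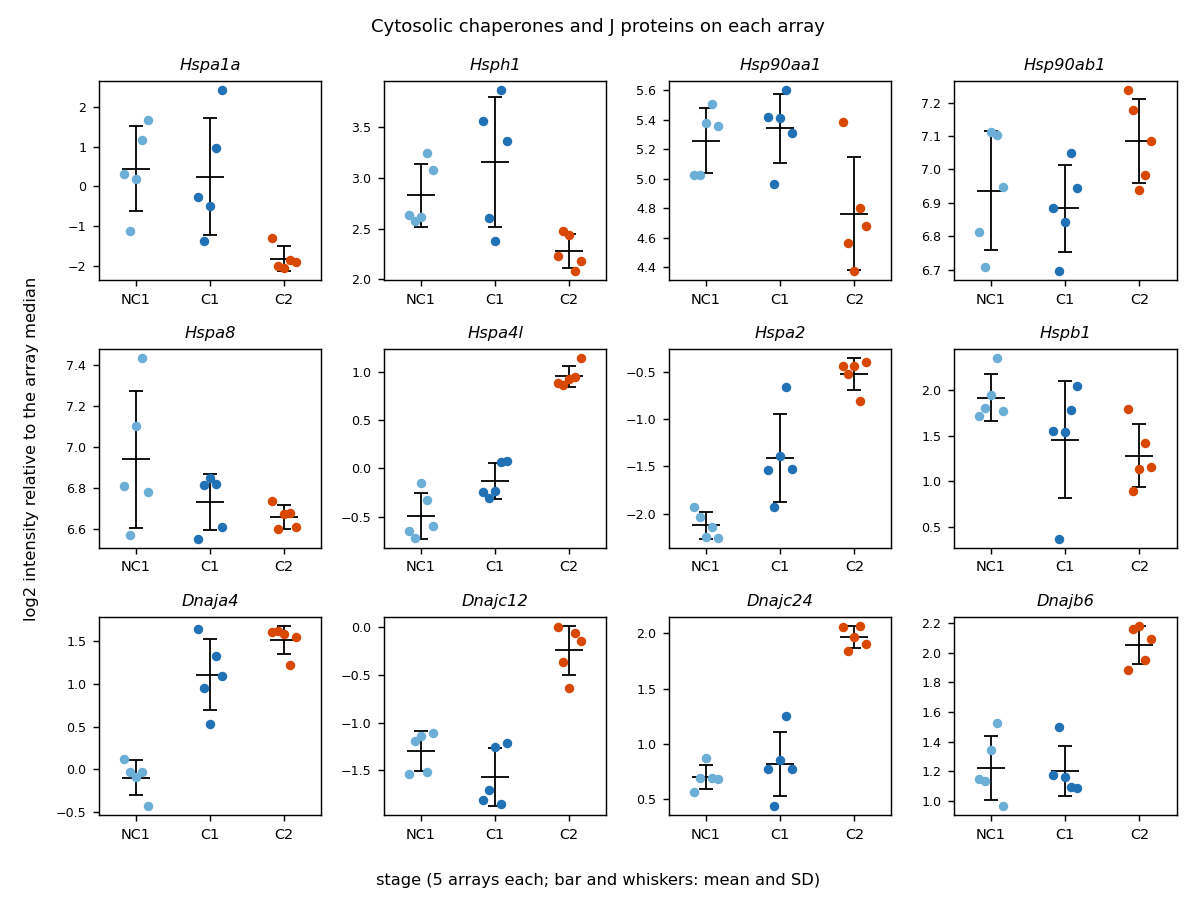
Log2 intensity relative to the array median of 12 cytosolic members on each array, by stage. Points are arrays, with the mean and SD of 5 arrays. Hspa4l, Dnajc12, Dnajc24 and Dnajb6 lie higher at C2 than at C1 without overlap, Dnaja4 lies higher at C1 than at NC1, and Hspa1a spreads most at the prophase I stages.

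Cytosolic J proteins, which select Hsp70 clients, showed 5 genes that rose (31.2%) and none that fell among 16 from C1 to C2. Over all valid probes 25.4% rose and 22.2% fell. The median of the 16 genes was 0.25, above 0 under every setting tried. Dnajc12, known as a co-chaperone of aromatic amino acid hydroxylases, stood at -1.54, -1.19, -1.14, -1.51 and -1.11 at NC1, at -1.81, -1.71, -1.26, -1.86 and -1.22 at C1 and at -0.0018, -0.37, -0.64, -0.06 and -0.15 at C2. It rose by 1.33 ± 0.16 (SE), or 2.51-fold (adjusted p = 2.25e-06). Dnajc24, which acts in diphthamide synthesis, stood at 0.57, 0.69, 0.87, 0.68 and 0.68 at NC1, at 0.77, 0.43, 0.86, 1.25 and 0.77 at C1 and at 2.06, 1.84, 1.97, 2.07 and 1.91 at C2. It rose by 1.15 ± 0.13 (SE) (adjusted p = 7.22e-07). Dnajb6, which suppresses protein aggregation, stood at 1.15, 1.14, 1.34, 1.53 and 0.96 at NC1, at 1.18, 1.497, 1.16, 1.096 and 1.09 at C1 and at 1.88, 2.16, 2.18, 1.95 and 2.09 at C2. It rose by 0.85 ± 0.12 (SE) (adjusted p = 1.2e-05). None of these 3 probes had a C2 array within its C1 range. Of the other valid Dnajb6 probes, 1 rose by 0.86 (adjusted p = 8.61e-06), whereas the other two had changes of 0.17 and 0.11 with overlap (adjusted p = 0.516 and 0.73). Dnajb3 rose by 0.85 ± 0.18 (SE) and Dnajb5 rose by 0.77 ± 0.17 (SE) (adjusted p = 0.000841 and 0.000758). The other 11 ranged from -0.37 (Dnajb4) to 0.44 (Dnajc7) without a call, among them the abundant Hsp70 partners Dnaja1 and Dnajb1.

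For several genes the probes disagreed from C1 to C2. For Dnaja2 and Dnajc5 the probe with the highest mean had a change of 0.01 (Dnaja2) and -0.26 (Dnajc5), neither called. The other valid Dnaja2 probe fell by 0.93 (adjusted p = 2.76e-06), and both other valid Dnajc5 probes rose, by 0.71 and 0.54 (adjusted p = 0.000118 and 0.000138). Dnaja2, Dnajc5, Dnajb6 and Dnajc19 are uncertain here. Over all members, 26 further valid probes of 19 genes were available, 11 of the 15 whose main probe was called from C1 to C2 had the same call, and none had the opposite call. The 4 without a call were the 2 of Dnajb6 and 1 each of Dnajc19 and Hspe1.

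The valid members of the CCT chaperonin, the ring that folds actin and tubulin, changed little. Tcp1, a further subunit of the ring, does not match the symbol rule and was read in the list of cytosolic co-chaperones. Of 7 subunits, Cct4 rose and Cct8 fell from C1 to C2 (14.3% each), against 25.4% and 22.2% of all valid probes. The median of the 7 subunits was -0.05, and it turned positive with the deposited table and with the median over all gene probes. Cct4 rose by 0.40 ± 0.11 (SE) (adjusted p = 0.00452) and Cct8 fell by 0.35 ± 0.08 (SE) (adjusted p = 0.00164). The Cct4 call was lost under 11 of 30 alternatives. The other 5 subunits ranged from -0.24 (Cct6a) to 0.18 (Cct5), and none of the 7 was called from NC1 to C1.

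Mitochondrial chaperones split, as 3 of 8 rose and 3 fell from C1 to C2 (37.5% each). Over all valid probes 25.4% rose and 22.2% fell. The Hsp60 and Hsp10 chaperonin, which folds imported proteins, is encoded by the neighbouring genes Hspd1 and Hspe1. Hspd1 stood at 5.12, 5.09, 5.30, 5.06 and 4.97 at NC1, at 5.52, 5.38, 5.37, 5.01 and 5.22 at C1 and at 4.75, 4.77, 5.03, 4.47 and 4.59 at C2. It fell by 0.58 ± 0.12 (SE) (adjusted p = 0.00058), although C2 replicate 3 lay within the C1 range. Hspe1 stood at 3.79, 3.81, 4.01, 3.92 and 3.90 at NC1, at 4.25, 3.92, 4.21, 4.01 and 4.06 at C1 and at 4.05, 3.55, 3.76, 3.68 and 3.51 at C2. It fell by 0.38 ± 0.11 (SE) (adjusted p = 0.00721), with C2 replicate 1 inside the C1 range, and this call was lost under 15 of 30 alternatives. Hspa9 (mortalin), the Hsp70 of import, stood at 3.66, 3.67, 3.25, 3.47 and 3.51 at NC1, at 3.69, 3.67, 3.68, 3.42 and 3.38 at C1 and at 3.03, 3.24, 3.42, 3.45 and 3.34 at C2. Its change was -0.27 ± 0.11 (SE, adjusted p = 0.0516). Dnajc19, a J protein of the import motor, fell by 1.33 ± 0.13 (SE) (adjusted p = 1.91e-07) on the probe used, whereas its other valid probe had a change of -0.011 (adjusted p = 0.967). Its relative Dnajc15 rose by 0.67 ± 0.12 (SE) (adjusted p = 0.000158). Dnaja3 (Tid1) rose by 0.61 ± 0.10 (SE) and Dnajc30 rose by 0.60 ± 0.14 (SE) (adjusted p = 9.23e-05 and 0.00135).

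The heat shock element, 3 inverted GAA units searched as GAANNTTCNNGAA or TTCNNGAANNTTC, was found in 4 of 69 member genes (Dnajb6, Hspd1, Hspe1 and Hsph1), against 0.662% of all genes. It was in none of the ER members in this window. Hspd1 and Hspe1 are transcribed away from each other and their promoter windows overlap, so that both hold the same element. Of the 4 genes, Dnajb6 rose on the probe used and the other 3 fell from C1 to C2. The 250 bases before the start are shown for the shared promoter in the direction of Hspe1, at chr1:55087898-55088147 (plus strand, GRCm38.p6), and for Dnajb6 at chr5:29735729-29735978 (plus strand), with the element in capitals.
Hspe1: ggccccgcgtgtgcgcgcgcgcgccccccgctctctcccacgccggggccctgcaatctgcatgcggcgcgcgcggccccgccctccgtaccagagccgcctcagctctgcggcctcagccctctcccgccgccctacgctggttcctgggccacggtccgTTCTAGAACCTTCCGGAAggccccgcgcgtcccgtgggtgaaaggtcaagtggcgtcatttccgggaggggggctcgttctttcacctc
Dnajb6: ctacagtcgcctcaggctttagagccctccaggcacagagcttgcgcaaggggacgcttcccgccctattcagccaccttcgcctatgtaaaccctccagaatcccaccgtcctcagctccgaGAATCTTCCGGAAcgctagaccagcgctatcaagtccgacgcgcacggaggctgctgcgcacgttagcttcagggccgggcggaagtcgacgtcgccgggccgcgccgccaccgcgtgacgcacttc

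The 8 other valid members belong to no compartment set here. Of these members, 3 fell and 1 rose from C1 to C2, against 22.2% and 25.4% of all valid probes. Besides Dnajb13, Dnajc9, a histone chaperone of proliferating cells, fell by 0.97 ± 0.09 (SE) (adjusted p = 1.58e-07) and Dnajc25 fell by 0.85 ± 0.15 (SE) (adjusted p = 0.000116). Hspb11, which carries an Hsp symbol but is a subunit of the intraflagellar transport complex, rose by 0.73 ± 0.13 (SE) (adjusted p = 0.000141). Dnajc4, Dnajc8, Dnajc17 and Dnajc18 ranged from -0.24 to 0.33 without a call. The 6 members below the presence rule were not tested. Among them Dnajc14 belongs to the ER set, and its mean level was -3.99 at C1 and -3.47 at C2, that is, higher at C2. Hspb2 was well above background on 5, 2 and 0 arrays of NC1, C1 and C2, Dnajc27 on 4, 3 and 1, Hspa12b on 5, 4 and 3, Cct6b on 5, 5 and 3, Dnajc14 on 4, 3 and 5, and Hspb8 on 3, 5 and 5.

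Further genes of these pathways, taken from lists of factors that are not members, were read in the same fit. In the list of ER quality control and secretory entry, 21 of 30 valid genes fell from C1 to C2 and 1 rose, with a median change of -0.72, and none was called from NC1 to C1. The lowest changes were Sdf2l1 (-2.92), Creld2 (-2.14) and Manf (-2.13), which encode small ER proteins induced by the UPR. Sec61b, a subunit of the translocon, was the gene that rose (0.67). In the list of ER-associated degradation, 6 of 22 genes rose and 5 fell, with a median of -0.12. Highest were Ube2j1 (1.22), Derl1 (0.95) and Rnf5 (0.91), and lowest were Derl3 (-3.25), Rnf139 (-0.72) and Erlec1 (-0.51). Derl1 and Derl3 are related ER membrane proteins, and they moved in opposite directions.

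In the list of integrated stress response genes, 7 of 22 genes rose and 4 fell, with a median of 0.08. The list was drawn up with eIF2α and some of its kinases beside targets of the response. Highest were Nupr1 (3.29), Atf5 (1.78) and Eif2ak2 (1.70), and lowest were Atf3 (-1.85), Slc7a5 (-0.89) and Phgdh (-0.76). Nupr1 is a stress-induced chromatin protein, Eif2ak2 is the eIF2α kinase PKR, and Phgdh starts serine synthesis. In the list of cytosolic co-chaperones and prefoldin, 10 of 28 genes rose and 2 fell, with a median of 0.26. Highest were Fkbp5 (1.48), Bag5 (0.83) and St13 (0.74), and those that fell were the Hsp90 partners Fkbp4 (-0.80) and Ppid (-0.57). Fkbp5 and Fkbp4 are related immunophilins of steroid receptor complexes. In the list of mitochondrial co-chaperones and proteases, 3 of 13 genes rose and 2 fell. Those that rose were Lonp1 (1.06), Grpel2 (0.40) and Grpel1 (0.38), and those that fell were Clpb (-0.94) and Yme1l1 (-0.68). These counts stand beside 25.4% that rose and 22.2% that fell among all valid probes.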

How the data were processed

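RNA of 15 pools of cumulus cells was labelled with 1 dye and hybridized to Agilent arrays. The authors deposited the scanner output, a background-subtracted intensity for each spot made with Feature Extraction (10.7.1.1 by the file headers and 10.5.1.1 by the submitters' processing notes). A second deposited file held log2 values scaled by the authors to the median over all probes, used here for the member search and as an alternative. Here, spots of a probe were averaged without those marked non-uniform or as population outliers, log2 was taken, and arrays were centred on their median of 17323 valid probes. No gene spot was saturated. The number of arrays limits the precision.

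Tests came from limma 3.58.1 under R 4.3.3, as 1 two-sided model over 15 arrays, with a moderated F-test, 3 contrasts and Benjamini-Hochberg adjustment over all valid probes at 0.01. Members came from the symbol rule, and 83 of 85 symbols equalled those of RefSeq. The members and lists were chosen with earlier results of these data known. Values on every array are given for UPR factors, heat shock factors, main chaperones and the 5 highest and 5 lowest called changes of each step without overlap, and of the lists the 3 highest and 3 lowest called changes. Marker lists of red blood cells, leukocytes, oocyte, oviduct epithelium, theca and stroma, and cumulus and granulosa cells were read the same way. The leukocyte list had 4 valid genes, of which 1 rose from C1 to C2. Promoters came from RefSeq (GRCm38.p6). A total of 30 alternatives were run. For normexp background correction (offset 50) the median spot signal was used. The fit was tested on simulated data. Nothing says that pools were made on separate days, so p-values measure the spread between these pools.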

Additional observations from a re-analysis of the deposited data

Results flagged for a closer look

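For 38 members given array by array, each stage was checked for 1 array that lies far from the other 4, by the gap to its nearest neighbour over the range of the 5. A total of 9 of 114 groups of 5 arrays were past Dixon's critical value, and chance flags about 1 in 20 groups. Values are log2 levels relative to the array median.

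Atf6 was -0.70 in C1 replicate 2, whereas the other 4 C1 arrays lay between -1.40 and -1.20. Canx was 5.08 in C1 replicate 1, and the others lay between 5.30 and 5.39. Dnaja4 was 1.22 in C2 replicate 4 against 1.55 to 1.62. Dnajb6 was 1.497 in C1 replicate 2 against 1.09 to 1.18. Dnajc3 was -0.53 in NC1 replicate 1 against -0.05 to 0.09. Eif2ak3 was 0.85 in C2 replicate 5 against 0.36 to 0.50. Ern1 was -1.03 in C1 replicate 4 against -2.08 to -1.80. Hspa1a was -1.29 in C2 replicate 1 against -2.07 to -1.85. Hyou1 was -2.31 in C1 replicate 1 against -1.78 to -1.59. C1 replicates 1 and 2 held 4 of the 9 values.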

How the results depend on the processing

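Under the 30 alternatives, no called member changed direction, and the difference between the ER and cytosolic medians from C1 to C2, which a constant per array cannot change, lay between -1.09 and -0.81. With the median over all gene probes, as with the deposited table, 15 members fell from C1 to C2 and 17 from NC1 to C2, and 0 rose and 0 fell from NC1 to C1. The ER medians were then -0.65 (C2 against C1) and -0.67 or -0.68 (C2 against NC1), and the cytosolic medians -0.14 (C1 against NC1), 0.35 (C2 against C1) and 0.26 (C2 against NC1). With spike-in scaling 4 members rose from C1 to C2, 8 rose and 18 fell from NC1 to C2, 28 were called across the 3 stages, and the cytosolic medians were 0.12 (C1 against NC1) and -0.11 (C2 against C1). Quantile normalization gave a cytosolic median of -0.10 from C1 to C2. With a minimum change of 2-fold, 4 rose and 13 fell from C1 to C2 (9 of the ER set), and 8 rose and 13 fell from NC1 to C2. A threshold of 0.05 gave 2 members higher at C1 than at NC1. The 1 member lower at C1 (Dnajb13) was not called, giving 0, with a minimum of 2-fold, no presence filter, presence on all arrays, normexp, slide as a block, spike-in scaling or unmoderated ANOVA. With 1 array left out, members higher at C1 were 1 to 2, members lower at C1 were 0 to 1 (0 without 12 of the 15 arrays in turn), and the cytosolic median from C1 to C2 lay between -0.061 (without C1 replicate 2) and 0.076 (without C1 replicate 4).

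With the mean of a gene's valid probes, Dnajc5 turned to 0.33 from C1 to C2 and to 0.39 against NC1, both called. Dnaja2 turned to -0.46 from C1 to C2, which was not called. Leaving out 1 array lost the C2 against C1 call of Hsp90aa1 for 9 arrays (changes of -0.61 to -0.49), Hspe1 for 7 (-0.40 to -0.35), Hspa1a for 6 (-2.08 to -1.53), Cct4 for 6 (0.31 to 0.39) and Hsph1 for 4 (-0.85 to -0.71). Same-numbered arrays correlated between -0.24 and 0.35 in their deviations from the stage means, and differently numbered arrays between -0.40 and 0.44. These correlations alone cannot exclude that the numbers pair the samples, and the main model used no replicate block. With the replicate number as a block 13 members rose and 30 fell from C1 to C2. The causes were not tested. Signals near background limit what can be seen for the 6 members below the presence rule.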
